A study of Chlorocebus aethiops with 24 samples.

Results

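The major histocompatibility genes of the vervet monkey hippocampus are described here through 14 probe sets, which stand for 11 genes. They are all the rows of the deposited table whose platform annotation gives a single symbol that begins with MAMU, the prefix of the rhesus macaque histocompatibility genes, or with HLA-, its human counterpart, or that equals B2M. The table held 11512 rows, of which 8730 had 1 symbol, and no symbol began with HLA-. The rows comprised 7 class I rows for MAMU-A, MAMU-AG, MAMU-B, MAMU-E, MAMU-F and MAMU-I, 6 class II rows for MAMU-DMA, MAMU-DOB, MAMU-DQA1 and MAMU-DRA, and 1 row for B2M. MAMU-A, MAMU-DMA and MAMU-DOB had 2 rows each, which are marked (a) and (b).

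The animals were male vervets (Chlorocebus aethiops in the labels, C. sabaeus in the methods), and RNA of the left hippocampus was hybridised to 1 Affymetrix Rhesus Macaque Genome Array per animal. FASD, for fetal alcohol spectrum disorder, names the offspring of dams that drank an ethanol solution by choice late in gestation, and control names the offspring of dams offered a sucrose solution of the same calories. The groups were 6 controls and 5 FASD animals at 5 months of age, and 6 controls and 5 FASD animals at 2 years. All dams were chosen for a preference for alcohol, and 1 dam could receive ethanol in a breeding cycle and sucrose in another. The mothers are not given in the labels, so that animals may be related.

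Class I molecules sit on the surface of nearly all nucleated cells and show peptides from inside the cell to cytotoxic T cells. Each consists of a heavy chain, which in macaques is encoded by MAMU-A, MAMU-B and their relatives, and of the shared light chain beta-2-microglobulin, encoded by B2M. MAMU-E, MAMU-F and MAMU-AG are known as non-classical class I genes of limited variation, MAMU-AG being placenta-associated, and MAMU-I is a less variable relative of MAMU-B. Class II molecules show peptides taken up from outside to helper T cells and are made by professional antigen-presenting cells, which in brain tissue are microglia and cells at the blood vessels. MAMU-DRA and MAMU-DQA1 encode alpha chains of the presenting molecules, MAMU-DMA a chain of the DM complex that loads peptides onto them, and MAMU-DOB a chain of DO, an inhibitor of DM.

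Class I genes are multiplied and highly variable in macaques, and their sequences are near-identical to one another. The arrays were designed for the rhesus macaque and not the vervet. The probe set names of 5 rows end in _s_at and those of 3 rows in _x_at, endings that Affymetrix uses for probe sets whose probes can match several transcripts, whereas 6 rows end in the plain _at. The rows of MAMU-I, MAMU-AG and MAMU-A (a) are of the _x_at kind. Their values are therefore uncertain as to the single gene and are described as values of the row that the annotation gives this name. All values are log2 expression intensities, so that a difference of 1 is a factor of 2. Levels are compared between animals and not between rows, except where rows below the median intensity of all rows are named.

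The gene family was selected on the exposure contrast, because MAMU-I was noticed for its difference between FASD and control animals, and its rows were then chosen by symbol. Differences between exposures are therefore given for all 14 rows as a description, with standard errors and no test. Age, averaged over both exposures, and the variation between animals of the same group did not enter that choice, and these were tested. The interaction of age with alcohol was fitted too, but it is made of the exposure differences at both ages, so that for MAMU-I it is not independent of the choice and is given as a description. In bulk tissue, fewer cells of a kind and less RNA per cell cannot be told apart.

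MAMU-I was lower in FASD animals than in controls at 5 months. The 6 controls at 5 months ranged from 9.19 to 10.09 with a median of 9.63, and the 5 FASD animals had 9.31, 8.05, 8.66, 9.14 and 8.36. All FASD animals were below the median of the controls and 4 of 5 were below every control, while FASD animal 2, at 9.31, was above the lowest control. At 2 years the 6 controls ranged from 8.92 to 9.99 with a median of 9.49, and the 5 FASD animals had 9.39, 9.54, 9.44, 8.99 and 9.48. There the groups overlapped fully, in that no FASD animal was below every control, although the FASD animals were mostly within a narrow band. None of the 14 rows separated the exposures without overlap at either age. Over all rows this held for 0.443% at 5 months and for 0.313% at 2 years, and since the exposure difference was used in the choice, nothing is read from that count.

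The order of the group means of MAMU-I was control at 5 months (9.67 ± 0.39, SD, n = 6), control at 2 years (9.52 ± 0.40, n = 6), FASD at 2 years (9.37 ± 0.22, n = 5) and FASD at 5 months (8.70 ± 0.52, n = 5). The first 3 of these differed from their neighbours by less than their SD. The step from FASD at 2 years to FASD at 5 months exceeded the SD of either group. FASD minus control was -0.97 (SE 0.22), 1.95-fold lower, at 5 months, -0.15 (SE 0.22), 1.11-fold lower, at 2 years, and -0.56 (SE 0.16) averaged over the ages. Without control animal 6 at 5 months, whose labels conflict on its age, that average was -0.58.

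The interaction, which is the exposure difference at 2 years minus that at 5 months, was 0.82 for MAMU-I (SE 0.31). After Benjamini-Hochberg adjustment over all 11512 rows no histocompatibility row passed for the interaction in limma. At an unadjusted p under 0.05 there was 1 of the 14, MAMU-I itself, and 3% of all rows, from which nothing is read because the exposure difference led to MAMU-I. Such rows numbered 3 without control animal 4 at 5 months and 2 without control animal 5 of that age. Among FASD animals alone, MAMU-I was 0.66 (SE 0.23) higher at 2 years than at 5 months. Among controls the same difference was -0.15 (SE 0.21). The difference among FASD animals uses the low values at 5 months that also enter the exposure difference, so that it is a description too.

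The mean of the markers of another cell type, 1 of 13 lists, was high in most FASD animals at 5 months, with overlap between the groups. FASD animal 2 had its highest value, 0.611. The mean of the 4 measured oligodendrocyte and myelin genes of 11 listed, centred on each gene's mean, was 0.048 to 0.611 in the FASD animals at 5 months and -0.267 to 0.082 in the controls of that age. At 2 years it was -0.366 to 0.074 in FASD animals and -0.305 to 0.213 in controls. UGT8, MBP and MAL, which serve myelin lipids and proteins, had differences of 0.56 (SE 0.14), 0.57 (SE 0.16) and 0.42 (SE 0.14) at 5 months, none past the threshold after adjustment, and CNP had -0.07 (SE 0.07). Between animals of the same group, Pearson's r of MAMU-I with this mean was 0.27 (rho 0.18, n = 22, permutation test, adjusted p = 0.558). The part of these cells in the MAMU-I values was not tested.

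B2M, the light chain shared by all class I molecules, was at 11.77 to 13.04 in the controls at 5 months, with a median of 12.39, and at 12.40, 12.14, 11.50, 11.84 and 12.09 in the FASD animals of that age. At 2 years the controls ranged from 11.71 to 12.58 with a median of 12.32, and the FASD animals had 12.23, 11.997, 11.80, 11.92 and 12.41. The groups overlapped at both ages, with 4 of 5 FASD animals below the control median at each. FASD minus control was -0.46 (SE 0.19) at 5 months, -0.19 (SE 0.19) at 2 years and -0.32 (SE 0.14) averaged over the ages.

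MAMU-A (a), 1 of the rows for a classical class I heavy chain, split the 5 months controls widely, from 7.39 to 9.43 with a median of 9.01. The FASD animals of that age had 8.06, 7.98, 7.96, 7.41 and 7.71, below the control median but above the lowest control in each case. At 2 years the controls ranged from 8.37 to 9.22 with a median of 8.48, and the FASD animals had 8.56, 9.24, 7.78, 8.50 and 8.37. The groups lay on both sides of each other there, with 2 FASD animals below every control and 1 above. FASD minus control was -0.79 (SE 0.32) at 5 months and -0.18 (SE 0.32) at 2 years.

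MAMU-A (b), the other row for that gene, did not follow the first. Its controls at 5 months ranged from 5.07 to 8.20 with a median of 5.80, and the FASD animals had 6.57, 6.78, 7.05, 5.33 and 6.17. Its controls at 2 years had a median of 5.25 and a highest value of 10.56, in animal 2, with the other 5 between 4.67 and 5.63, while the FASD animals had 4.83, 5.07, 5.62, 5.28 and 6.83. The highest animal of each control group was animal 2, and the labels do not say that this number links animals of different ages. FASD minus control averaged -0.10 (SE 0.54), and without control animal 2 at 2 years it was 0.35, so that 1 array set the sign. Pearson's r between both MAMU-A rows, on deviations from the group means, was -0.18 (rho 0.08, n = 22, permutation test, adjusted p = 0.706).

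MAMU-AG, the placenta-associated class I gene, ranged from 9.37 to 11.23 in the controls at 5 months with a median of 10.80. The FASD animals had 10.52, 10.49, 10.51, 9.32 and 10.30, all below that median, and animal 5 lay 0.98 under the next. At 2 years the controls ranged from 9.86 to 10.69 with a median of 10.23, and the FASD animals had 10.33, 10.58, 9.79, 10.18 and 10.74. The exposure difference was -0.38 (SE 0.27) at 5 months and 0.09 (SE 0.27) at 2 years.

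The remaining class I rows varied little, and those of MAMU-B and MAMU-E were below the median intensity of all rows. MAMU-B, a classical heavy chain, stayed between 7.01 and 7.44 in all 22 animals, MAMU-E between 6.99 and 7.42, and MAMU-F between 8.19 and 8.83. Their exposure differences averaged over the ages were 0.01 (SE 0.05) for MAMU-B, -0.07 (SE 0.05) for MAMU-E and 0.08 (SE 0.06) for MAMU-F. For MAMU-E all 5 FASD animals at 5 months were below the control median and 2 below every control, within a total range of 1.35-fold over the series.

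**Figure D1:**
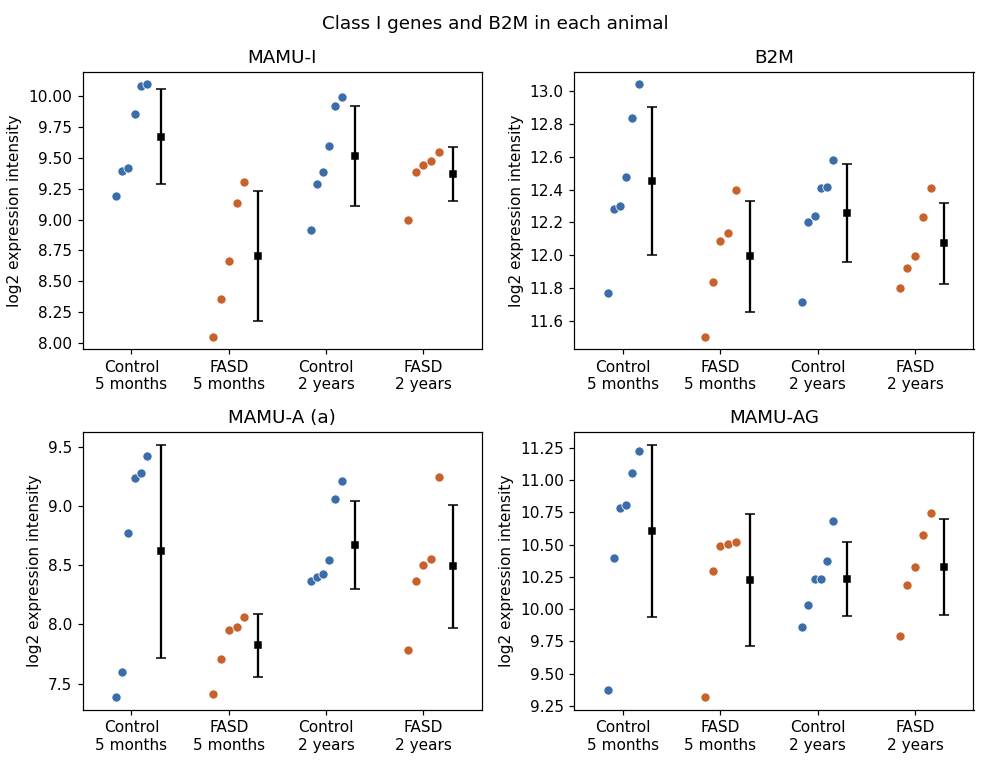
Log2 expression intensity of 4 rows in each animal, by group on the horizontal axis (blue, control; orange, FASD). Each point is 1 animal, and the square with its bar is the mean ± SD. For MAMU-I, 4 of the 5 FASD animals at 5 months lie below all 6 controls of that age, whereas the groups overlap at 2 years and in the other rows.

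Among the class II rows, MAMU-DRA, the alpha chain of the DR molecule, had the widest spread. The controls at 5 months ranged from 6.99 to 9.88 with a median of 8.31, while the FASD animals had 9.37, 7.95, 8.14, 7.71 and 7.37. The controls at 2 years lay close together, between 8.08 and 8.75 with a median of 8.24, while the FASD animals of that age had 8.58, 8.90, 7.72, 7.19 and 9.36. In the younger animals the FASD values fell inside the range of the controls, and in the older ones 2 fell below it and 2 above it. The SD was 1.22 in the controls at 5 months and 0.24 in those at 2 years, a difference in spread that was not tested. FASD minus control averaged -0.15 (SE 0.33).

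MAMU-DMA (b), 1 of the rows for the DM alpha chain, ranged from 5.43 to 6.72 in the controls at 5 months with a median of 6.18, and the FASD animals had 6.19, 5.82, 5.56, 5.82 and 5.63. Its controls at 2 years ranged from 5.55 to 6.05 with a median of 5.98, and the FASD animals had 5.84, 6.18, 5.85, 5.42 and 6.23. As in MAMU-DRA, the FASD animals of the older age lay on both sides of the controls. FASD minus control was -0.32 (SE 0.19) at 5 months and -0.02 (SE 0.19) at 2 years.

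MAMU-DMA (a) behaved otherwise. The controls ranged from 9.09 to 9.59 at 5 months (median 9.25) and from 8.96 to 9.59 at 2 years (median 9.26). The FASD animals had 8.16, 9.47, 9.17, 9.67 and 9.56 at 5 months and 9.67, 9.03, 9.98, 9.29 and 9.03 at 2 years. The lowest value of the series was in FASD animal 2 at 5 months and the highest in FASD animal 3 at 2 years, and the exposure difference averaged 0.01 (SE 0.15). Pearson's r between both MAMU-DMA rows within groups was -0.28 (rho -0.31, n = 22, permutation test, adjusted p = 0.491). MAMU-DMA (a) had an r of -0.45 with MAMU-DRA (rho -0.36, permutation test, adjusted p = 0.22). Its name and class are those of the annotation, and whether the row measures this gene in the vervet was not tested.

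The other class II rows varied by less than 2-fold over the series. MAMU-DQA1, the DQ alpha chain, lay between 6.83 and 7.82, and its FASD animals at 5 months kept to 7.01 to 7.18. MAMU-DOB (a) lay between 6.23 and 6.77, and MAMU-DOB (b) between 5.17 and 5.54. Exposure differences averaged over the ages were -0.06 (SE 0.09), 0.07 (SE 0.05) and -0.01 (SE 0.05), respectively. The MAMU-DOB rows were also unlike each other within groups (Pearson's r 0.12, rho -0.12, n = 22, permutation test, adjusted p = 0.798).

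**Figure D2:**
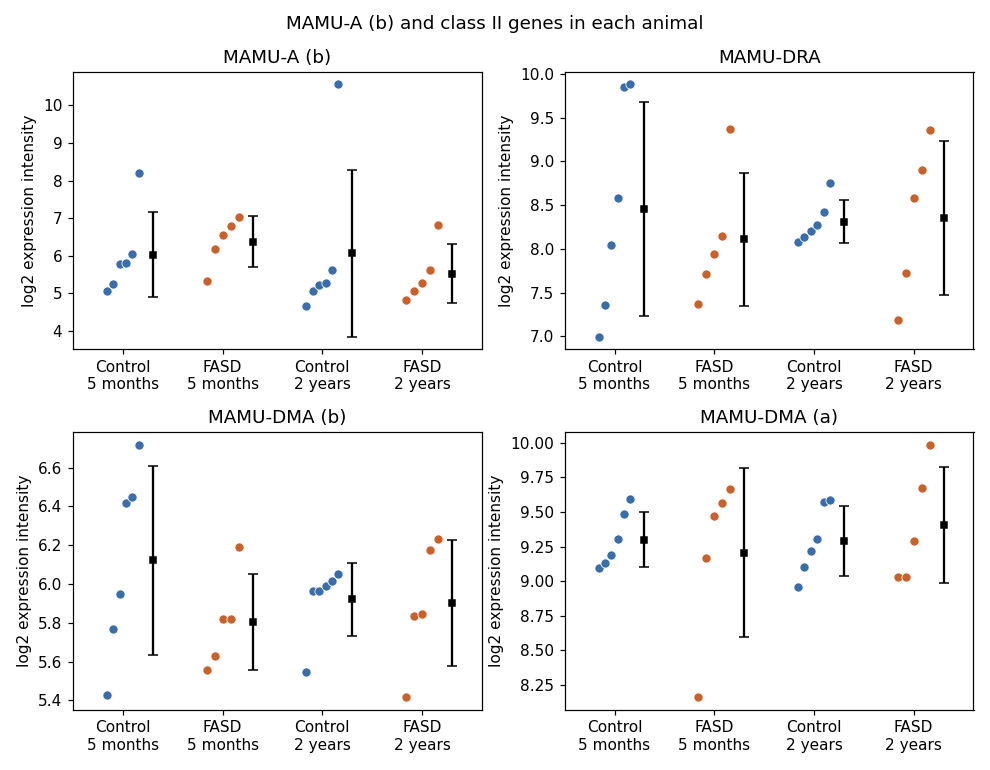
Log2 expression intensity of MAMU-A (b) and of 3 class II rows in each animal, by group on the horizontal axis (blue, control; orange, FASD). Points are animals and squares with bars are means ± SD. A single control at 2 years stands at 10.56 in MAMU-A (b), and MAMU-DRA spans 6.99 to 9.88 in the controls at 5 months against 8.08 to 8.75 in those at 2 years.

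Across the 14 rows, the mean over both ages was lower in FASD animals for 10 and higher for 4, with a median difference of -0.08. Over all 11512 rows 53.2% were lower and the median difference was -0.01. At 5 months alone 11 of the 14 were lower, and at 2 years 5 were. The rows of lower mean comprised 5 of the 7 class I rows, 4 of the 6 class II rows and B2M. These rows share animals and one of them was chosen for its difference, so that the counts are no evidence on exposure.

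None of the 14 rows passed for age. The lowest adjusted p was 0.602 (limma), for MAMU-B, which was 0.08 lower at 2 years (SE 0.05, 95% interval -0.18 to 0.01). Its exact permutation p was 0.0483, two-sided, with age exchanged within exposure over 232848 arrangements. This was the lowest permutation p of the 14 rows and was not adjusted for their number. No row had an unadjusted p under 0.05 in limma, against 9.57% of all rows, whereas 1 had when either of FASD animals 2 and 6 or control animal 1 was left out at 5 months, and 2 had without control animal 2 at 2 years. The rows were evenly divided, with 7 lower and 7 higher at 2 years, and their median difference was 0.00. MAMU-I was 0.26 higher at 2 years (SE 0.16, 95% interval -0.07 to 0.58, exact permutation p = 0.203), B2M -0.06 (95% interval -0.34 to 0.23) and MAMU-DRA 0.05 (95% interval -0.63 to 0.74). The intervals of MAMU-DRA and MAMU-A (b), the most widely spread rows, included changes of 0.5 in either direction. Without control animal 2 at 2 years, MAMU-A (b) was 0.85 lower at 2 years (limma, adjusted p = 0.262). No row separated the ages without overlap within controls or within FASD animals, as 0.434% and 1.31% of all rows did.

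**Figure D3:**
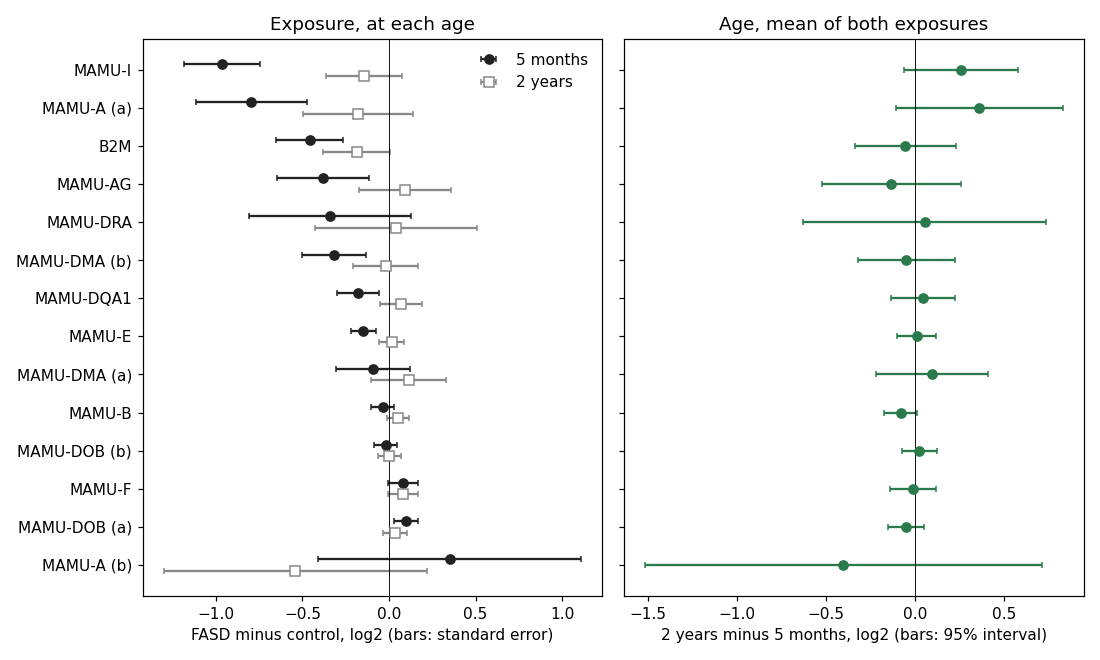
Left, FASD minus control (log2) for each row at 5 months (filled circles) and 2 years (open squares), with standard errors and no test. Right, 2 years minus 5 months (log2), averaged over both exposures, with 95% intervals, each of which includes 0. MAMU-I at 5 months, at -0.97, is the difference farthest from 0.

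What set many of these rows apart from the rest of the array was the spread between animals of the same group. The pooled SD within groups was above the 90th percentile of all rows for 8 of the 14 and below the 50th for 5, and its median was 0.342 against 0.158 over all rows. MAMU-A (b) had a pooled SD of 1.40 (percentile 99.98), a 59.0-fold range over the 22 animals. That range rests on control animal 2 at 2 years, at 10.56, while the next highest animal had 8.20. MAMU-DRA followed with 0.86 (percentile 99.87, 7.40-fold), then MAMU-A (a) with 0.58, MAMU-AG with 0.49, MAMU-I with 0.40, MAMU-DMA (a) with 0.39, B2M with 0.35 and MAMU-DMA (b) with 0.34. At the other end were MAMU-B, both MAMU-DOB rows, MAMU-E and MAMU-F, with pooled SDs of 0.09 to 0.14. MAMU-A (b), MAMU-DMA (b), MAMU-B, MAMU-E, MAMU-DQA1 and both MAMU-DOB rows had a mean intensity below the median of all rows. Of the narrow rows, all but MAMU-F were thus dim, and of the 8 widest rows only MAMU-A (b) and MAMU-DMA (b) were. The part of weak signal in the narrow spread was not tested.

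**Figure D4:**
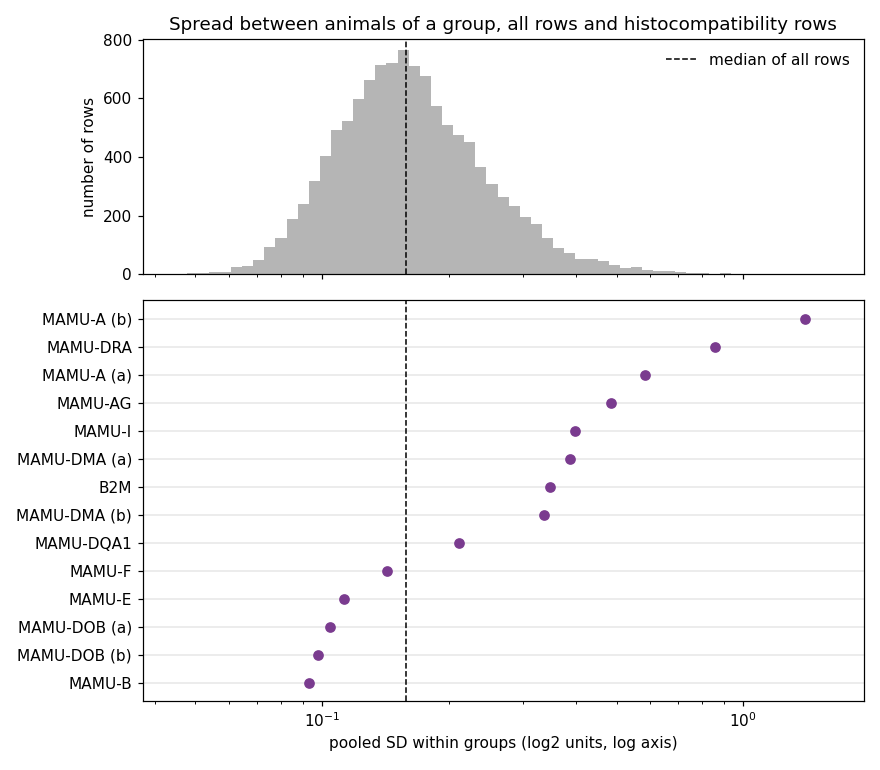
Top, histogram of the pooled SD within groups (log2 units, log axis) over all 11512 rows. Bottom, the same quantity for the 14 histocompatibility rows, from 0.09 for MAMU-B to 1.40 for MAMU-A (b), with the dashed line at the median of all rows, 0.158.

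Several of the rows varied together from animal to animal. Among them MAMU-DRA, MAMU-DMA (b) and B2M were widely spread, whereas MAMU-DOB (b) and MAMU-B were narrow. Correlations were computed on deviations from the group means over 22 animals for all 91 pairs of rows, with permutation tests that exchanged animals within groups and Benjamini-Hochberg adjustment over the pairs, and 4 pairs passed by both Pearson's r and Spearman's rho. MAMU-DRA went with MAMU-DMA (b) (r 0.87, rho 0.82, permutation test, adjusted p = 0.00273), and r was 0.81 without the 2 animals farthest from the median. MAMU-DRA also went with MAMU-DOB (b) (r 0.72, rho 0.70, permutation test, adjusted p = 0.0187; r 0.58 without 2 animals) and with B2M (r 0.72, rho 0.68, permutation test, adjusted p = 0.0391; r 0.57 without 2 animals). MAMU-B and MAMU-DQA1 went in opposite directions (r -0.69, rho -0.61, permutation test, adjusted p = 0.0432; r -0.41 without 2 animals), and this pair did not pass with each array centred on its median (permutation test, adjusted p = 0.0571).

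The controls at 5 months carried much of this. Animals 1 and 2 were the highest of that group in MAMU-DRA (9.88 and 9.85), MAMU-I (10.08 and 10.09), B2M (13.04 and 12.84) and MAMU-AG (11.23 and 11.05), and animal 4 was the lowest in each of these rows. MAMU-A (a) parted from this order, since animal 2 had only 7.60 there against 9.43 in animal 1. FASD animal 2 at 5 months, the highest of its group in MAMU-DRA, MAMU-I, B2M, MAMU-AG and MAMU-DMA (b), also weighed on the tests. Without it the adjusted p passed for MAMU-DRA with MAMU-DMA (b) only (0.0319), and was 0.0573 to 0.0686 for the other 3 pairs, whose r was then 0.67, 0.68 and -0.71.

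MAMU-I was related to MAMU-DRA with an r of 0.57 (rho 0.50, permutation test, adjusted p = 0.0665) and to B2M with an r of 0.55 (rho 0.52, permutation test, adjusted p = 0.125), neither past the threshold. MAMU-AG, by contrast with its Pearson values (adjusted p = 0.0569 each), passed by Spearman's rho with MAMU-DRA (rho 0.69, permutation test, adjusted p = 0.0382) and with B2M (rho 0.65, permutation test, adjusted p = 0.0427). The rows of non-members most like MAMU-I in these deviations, over 22 animals, were MDGA2 (r 0.77), ZNF140 (r 0.74), LOC707072 (r 0.73), RHOA (r 0.72) and SDHAF3 (r 0.71). Those most like B2M were ZNF669 (r 0.88), NUP153 (r 0.87), CTSS (r 0.87), RPL15 (r 0.86) and VPS29 (r 0.83). These were picked as the highest of all rows, so that their r values are descriptions.

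**Figure D5:**
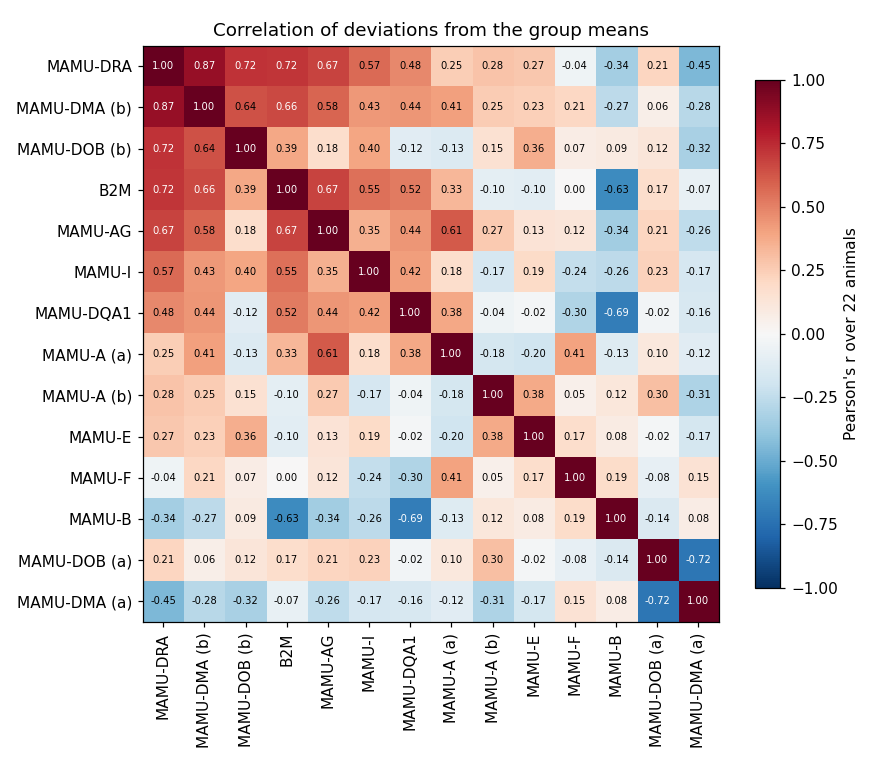
Pearson's r between the 14 rows over 22 animals, on deviations from the group means, from blue (-1) to red (1). MAMU-DRA, MAMU-DMA (b), B2M, MAMU-AG and MAMU-I are positive with one another, from 0.35 to 0.87. MAMU-DQA1 is positive with each of these too, from 0.42 to 0.52. Of the pairs among the rows first named, only MAMU-DRA with MAMU-DMA (b) and with B2M passed by Pearson's r. MAMU-DMA (a) is negative with most rows, and both rows of MAMU-A, MAMU-DMA and MAMU-DOB are unlike each other. The order of the rows was set by hand.

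MAMU-DMA (b), MAMU-DRA and B2M also varied with the means of genes around antigen presentation. Each of the 14 rows was set against the mean of each of 13 gene lists, again on deviations from the group means, and 8 of the 182 relations passed after adjustment by Pearson's r, 4 of them by Spearman's rho as well. MAMU-DMA (b) went with the mean of 11 measured microglial genes (r 0.80, rho 0.85, permutation test, adjusted p = 0.00182), a list that includes CD14, TYROBP, AIF1 and P2RY12, with the class I processing genes (r 0.71, rho 0.68, permutation test, adjusted p = 0.0215) and with the interferon response genes (r 0.73, rho 0.76, permutation test, adjusted p = 0.0473). B2M went with the class II pathway genes (r 0.85, rho 0.84, permutation test, adjusted p = 0.00182), among them CTSS, the cathepsin that degrades the invariant chain, and RFX5, a transcription factor of class II genes. This mean was of 5 rows, and CTSS alone had an r of 0.87 with B2M. CTSS is also on the microglial list. The relation was not computed without CTSS, so that it is not shown for the other genes.

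MAMU-DRA passed by Pearson's r only, with the interferon response (r 0.77, rho 0.69, permutation test, adjusted p = 0.0215), the class I processing genes (r 0.70), the class II pathway (r 0.68) and the microglial genes (r 0.67, permutation test, adjusted p = 0.0458). Without FASD animal 2 at 5 months the r values of these 8 relations lay between 0.59 and 0.83. For MAMU-I the closest list was the interferon response (r 0.59, rho 0.54, permutation test, adjusted p = 0.0613), which did not pass. Of the lymphocyte and blood cell markers only CD79B and PTPRC of 21 were measured, so that these cells could not be followed.

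The microglial mean lay at -0.150 to 0.225 in the controls and -0.165 to 0.334 in the FASD animals at 5 months, and at -0.136 to 0.139 and -0.197 to 0.142 at 2 years, so that the groups overlapped. FASD animal 2 at 5 months had the highest microglial mean, 0.334, with the lowest mean of the pyramidal and granule neuron markers, -0.635, and the highest of the mural cell and fibroblast markers, 0.723. It also had the lowest MAMU-DMA (a). MAMU-DMA (a) was related to the neuron markers with an r of 0.80 (rho 0.66, permutation test, adjusted p = 0.0613), which was 0.60 without the 2 animals farthest from the median. The part of cell composition in these values was not tested.

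Of the genes around the histocompatibility molecules that are no members, 62 genes on 64 rows were measured, in lists of class I processing and loading (8 of 15 genes), the class II pathway (5 of 9), class I-like molecules and their receptors (5 of 20), the interferon response (21 of 47) and other genes of the histocompatibility region (23 of 68). None passed for alcohol after adjustment (limma, lowest adjusted p = 0.580), nor did any of the 11512 rows. At an unadjusted p under 0.05 there were 2, which is 3.12% of the 64 against 8.44% of all rows, and both were lower in FASD animals. TAP1, a subunit of the pump that brings peptides to class I molecules, differed by -0.18 (SE 0.08), and IFIT2, an interferon-induced antiviral gene, by -0.23 (SE 0.11) on 1 of its 2 rows. The other IFIT2 row gave -0.11 (SE 0.09). These are averages over the ages. TAP1 differed by -0.41 (SE 0.11) at 5 months and by 0.05 (SE 0.11) at 2 years. The first IFIT2 row differed by -0.13 (SE 0.15) and -0.32 (SE 0.15), respectively. None of these passed after adjustment. The median difference over the 64 rows was 0.01.

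For age, 1 of the 64 rows passed after adjustment, against 0.139% of all rows. TRIM22, an interferon-induced antiviral ubiquitin ligase, was 7.77 ± 0.19 (SD, n = 6) in controls and 7.80 ± 0.20 (n = 5) in FASD animals at 5 months, and 8.42 ± 0.21 (n = 6) and 8.44 ± 0.56 (n = 5) at 2 years. It rose by 0.65 with age (SE 0.13, limma adjusted p = 0.0279). The call was lost, with adjusted p values of 0.0563 to 0.0769, when any 1 of 7 animals was left out, which were control animals 1 and 4 and FASD animals 3 and 4 at 5 months, and control animals 1 and 3 and FASD animal 3 at 2 years. IFI35, also interferon-induced, was 0.25 lower at 2 years (SE 0.10), past the unadjusted threshold only. With TRIM22 it made 2 of the 64 rows at an unadjusted p under 0.05, which is 3.12% against 9.57% of all rows. No gene of class I processing, of the class II pathway, of the class I-like molecules or of the histocompatibility region passed for age, also without adjustment.

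The cell type lists gave no call after adjustment for alcohol or age. At an unadjusted p under 0.05, C1QA, a complement component made by microglia, was 0.22 higher in FASD animals (SE 0.10) and 0.36 lower at 2 years (SE 0.10), alone among the 11 microglial genes, and PECAM1, of endothelium, was 0.16 higher in FASD animals (SE 0.07). Of the 4 oligodendrocyte rows, 2 were higher in FASD animals and 2 lower at 2 years at that threshold, and for age 1 neuron marker was lower and 1 astrocyte row higher. The cell type lists held 47 rows in all. Over all rows of the table, 8.44% were under that threshold for alcohol and 9.57% for age, so that nothing is read from these single rows. Neurons, astrocytes, oligodendrocytes and microglia were each represented by 4 or more markers. Per the methods the table holds only probe sets detected in at least 6 arrays, so that their presence follows from that filter and does not identify the brain region.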

How the data were processed

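The authors deposited a table on the log2 scale, with expression intensities made by RMA, a method of background correction, normalisation between arrays and summary of each probe set (software version not given in the sources used here). Per the methods, the authors had already reduced the table to annotated probe sets detected in at least 6 arrays, with the highest mean per gene, yet 3 symbols have 2 rows in the platform annotation used here, which can be old. Another 2 FASD arrays, discarded by the authors, held no values; the one at 5 months is titled replicate 2, like FASD animal 2 of that age, while its source name says replicate 4, so the number of FASD animal 2 is shared by 2 titles. Control animal 6 at 5 months is called 2 years old in its source name and 5 months in its other labels, and was placed at 5 months.

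No rescaling or filter was applied. A mean per group was fitted to all 11512 rows with limma 3.58.1 in R 4.3.3, with empirical Bayes moderation, two-sided tests and Benjamini-Hochberg adjustment over all rows; the methods' two-way analysis of variance was an alternative. P-values set the differences and correlations against the variation between these animals. They take the animals as independent, although some may be related. Correlations used 100000 permutations. The steps were tested on simulated data, where 46.5%, 93.5% and 99.5% of 200 rows with an age change of 0.25, 0.5 and 1 were recovered at an adjusted p under 0.05. Those rows were drawn at random from all rows, whose median pooled SD was 0.158. The histocompatibility rows had a median of 0.342, so that these shares do not hold for the widely spread ones. The number of arrays limits precision. The labels give no batch, and the methods state that all arrays were loaded on the same day.

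Members, gene lists and tests were chosen with earlier results of these data known. All member rows are named. Values in every animal are given for MAMU-I, B2M and the 6 further rows of largest pooled SD, and for groups of 6 animals as lowest, median and highest. Genes of the lists are named where they passed or were among the 4 of lowest p, and 5 genes are named for likeness to MAMU-I and to B2M. The relations of members to list means were added after the data had been examined. No sequences are given.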

Additional observations from a re-analysis of the deposited data

Results flagged for a closer look

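Within each of the 56 groups of 5 or 6 animals (14 rows in 4 groups), the highest and lowest animal were checked by Dixon's criterion for a gap to the next animal that is large against the range of the group. Chance marks about 1 in 20 groups, or 2.8 of 56, and 6 stood out. Both control animals 2 were far above the others of their group in MAMU-A (b), at 8.195 at 5 months (2.14 of a range of 3.13) and at 10.556 at 2 years (4.93 of 5.88). FASD animal 5 at 5 months was far below its group in MAMU-AG, at 9.319 (0.976 of 1.20). Control animal 6 at 2 years was far below its group in MAMU-DMA (b), at 5.546 (0.416 of 0.506). FASD animal 2 at 5 months was far above its group in MAMU-DOB (a), at 6.768 (0.358 of 0.458). FASD animal 4 at 2 years was far below its group in MAMU-I, at 8.995 (0.393 of 0.549).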

How the results depend on the processing

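The exposure difference of MAMU-I kept its sign in all 8 alternative settings, between -0.63 with array weights and -0.53 with quantile normalisation, and between -0.63 and -0.48 when each animal was left out. Its interaction was 0.78 to 0.82 over the alternatives and 0.66 to 0.97 over the animals left out. No member row passed for age or the interaction after adjustment in any of these settings. The exposure difference of 4 rows and the age difference of 7 rows changed sign in some setting. The age call of the pathway genes, which is TRIM22, was lost in the two-way analysis of variance without moderation (0 calls in place of 1), and was 0 or 1 over the animals left out. The pairs of correlated rows numbered 5 with each array centred on its median, where MAMU-B with MAMU-DQA1 was lost (adjusted p = 0.0571) and B2M with MAMU-AG and with MAMU-DMA (b) were gained (0.0486 each, permutation test), and 1 without FASD animal 2 at 5 months, in place of 4. Centring moved the median exposure difference of all rows by 0.01. The labels do not say whether animals with the same replicate number in different groups are linked. Their deviations correlated at -0.33 to 0.39 over 30 pairs (mean 0.07, against -0.01 for other pairs), which cannot decide this. With the replicate number as a block, the MAMU-I exposure difference was -0.54, the pathway genes had 1 call for age and 0 for alcohol, and the members had 0 calls for age and 0 for the interaction. Intensity over background could not be judged, because the table holds no detection values.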

Other observations

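The non-member rows most like MAMU-DRA within groups, chosen after their values were seen, were PSMB8 (r 0.81), an immunoproteasome subunit, CYBB (r 0.80), a subunit of the phagocyte oxidase, RNASE6 (r 0.79), IFIT1 (r 0.79) and UBE2L6 (r 0.79). Those most like MAMU-DMA (b) included CYBB (r 0.81) and CD14 (r 0.79), a receptor of myeloid cells. CYBB also led for MAMU-AG (r 0.76). MAMU-DMA (a) was most like UBE2E2 (r 0.89), DYNLL1 (r 0.88), SPHKAP (r 0.88), PPP1CB (r 0.88) and MMD (r 0.88), so that no gene of the 8 closest was shared between the MAMU-DMA rows. These are the highest of 11512 rows over 22 animals and have no test.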
